A study of Mus musculus with 12 samples.

Results

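Wild-type (WT) and Cd163 knockout (KO) mouse hearts were compared after sham surgery, which shows what differed between the genotypes in hearts whose aorta had not been narrowed. The members were the libraries labelled as knockout sham or wild-type sham, 3 of each, 6 of the 12 libraries of the series, and the difference was tested across all genes. The other 6 libraries came from WT and KO hearts after transverse aortic constriction (TAC), a surgical model of pressure overload. All mice were male and 8 weeks old at the operation. The WT mice were C57BL/6J, and the Cd163-/- mice carried a constitutive knockout on the C57BL/6J background. The sources used here do not name the deleted part of the gene. Sham mice had the same operation without the tie that constricted the aorta in the TAC mice. Poly(A) RNA of heart tissue was read as 150 bp pairs. The labels do not say whether each library is 1 animal, so a p-value covers no more than the spread among libraries, some of which may be technical. How long after surgery the hearts were taken is likewise not stated.

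CD163 is a scavenger receptor on the surface of resident tissue macrophages. It binds haemoglobin held by haptoglobin and takes the complex into the cell, where the haem is broken down by haem oxygenase and the iron is stored or exported. Resident macrophages of the heart lie among cardiomyocytes, fibroblasts and vessels, and much of the heart's connective tissue is made by fibroblasts as collagens and elastic fibres. In RNA of whole tissue, fewer cells of a type and less RNA per cell cannot be told apart.

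Total counts were 19987174 to 22400473 per WT sham library and 15804176 to 22602225 per KO sham library. Levels below are read counts scaled to a common library size with TMM factors (CPM), and a gene is called where the edgeR adjusted p is under 0.05. The heart label was met by the muscle genes: Myh6, the main myosin heavy chain of the adult mouse heart, stood at 19000 to 21580 CPM in WT sham and 8526 to 18380 CPM in KO sham libraries. Defining genes of lung were near 0, with Sftpc, the surfactant protein C gene, at 0 in all 6 libraries.

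KO sham replicate 1 did not resemble the other KO sham libraries. Its rank correlations over genes with the other 5 sham libraries were 0.915 to 0.935, while those 5 correlated with each other at 0.981 to 0.993. In 12945 of 16196 genes, 79.93%, its level was nearer to the mean of the KO TAC libraries than to that of KO sham replicates 2 and 3. Transcripts of the mitochondrial genome were 50.95% of its counts, against 30.54% and 31.61% in the other KO sham libraries, 35.13% to 36.89% in WT sham and 44.03% to 51.27% in KO TAC. The T cell maturation genes Rag1 and Dntt were each at 1.64 CPM in it and at no more than 0.0469 CPM in the other sham libraries, and Alb, the albumin gene, was at 1.23 CPM against at most 0.0497 CPM. Why this library stands where it does was not tested, and results are therefore given with it (6 libraries) and without it (3 WT and 2 KO libraries).

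With all 6 libraries, 1 of 15804 genes passed (0.00633%), Cnmd, and 2138 had an unadjusted p under 0.05 (13.5%). Without KO sham replicate 1, 39 of 16196 genes passed (0.241%): 13 rose in KO (0.0803%) and 26 fell (0.161%). At an unadjusted p under 0.05 there were then 1559 genes (9.63%). The number rests on few libraries: it was 0 when KO sham replicate 2 was also left out and 1, not among the 39, without replicate 3. Those fits keep 1 KO sham library, which is assumed to vary like the other groups. It was 3 to 9 without 1 of the WT sham libraries, and 418 when the TAC libraries did not enter the fit. With KO sham replicate 1 counted too, 24 of the 39 showed no overlap between WT and KO, 10 higher and 14 lower. All 39 were already separated without it, so only that library could undo the separation. Over all genes 12.2% were separated upward and 10.4% downward with all 6 libraries. Counts of list members at an unadjusted p under 0.05 below are to be read beside the 13.5% and 9.63% above. DESeq2 called more genes than edgeR: 207 of 15804 with all 6 libraries and 214 of 16196 without KO sham replicate 1. Its counts of list members below are to be read beside these.

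**Figure D1:**
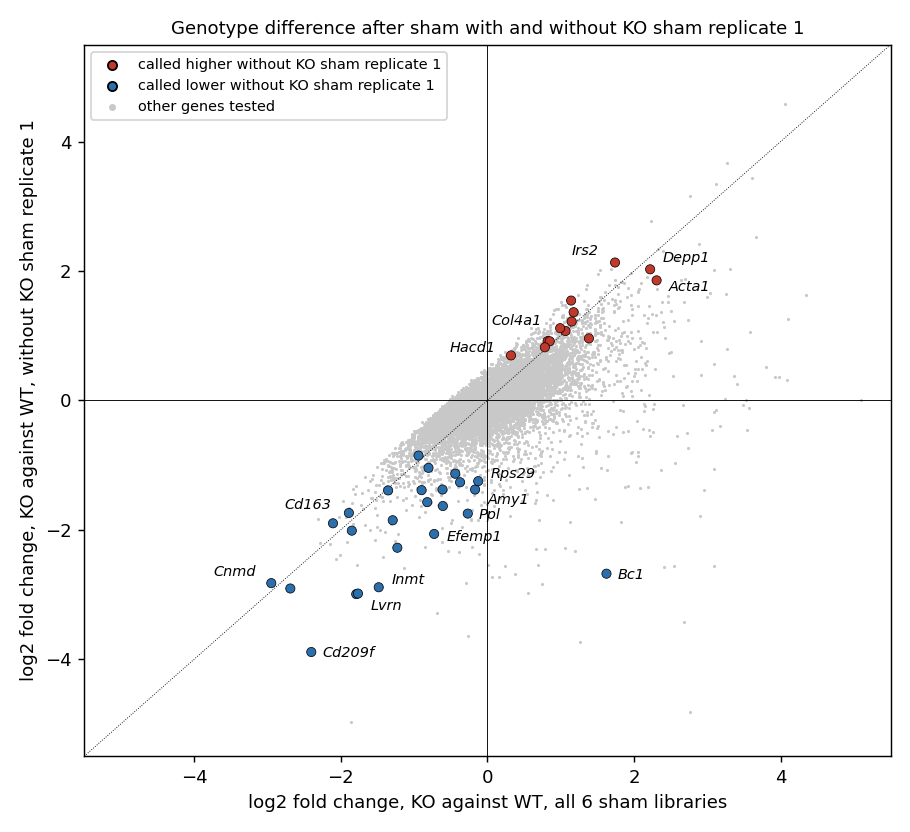
Log2 fold change of KO against WT after sham for each gene, with all 6 libraries (x axis) and without KO sham replicate 1 (y axis), drawn for 15798 of the 15804 genes tested in both. Red and blue points are genes called higher or lower without that library; all 38 of them drawn have the same sign in both comparisons except Bc1, at 1.62 against −2.68.

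Cd163 (ENSMUSG00000008845), the targeted gene, was the check of the labels. It stood at 16.1, 15.6 and 14 CPM in the WT sham libraries and at 3.14, 4.60 and 4.50 CPM in the KO sham libraries. The groups did not overlap, and KO sham replicate 1 was the lowest of all 6. Cd163 fell 3.34-fold without that library, with a log2 fold change of −1.74 ± 0.28 (SE) and an adjusted p of 0.0348. With all 6 libraries the log2 fold change was −1.89 ± 0.27 (adjusted p = 0.0748), from 15.2 ± 1.08 to 4.08 ± 0.816 CPM (SD, n = 3 per group). Without that library the call was lost under 10 of 21 alternatives, with adjusted p of 0.05 to 0.638, and the direction in none. Each KO library still had 46 to 112 counts of the gene. Il10, the interleukin-10 gene, had 2 counts over the WT sham and 2 over the KO sham libraries, under the floor of 3 counts, so a difference was not detectable at this depth.

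Among the markers of resident macrophages, Cd163 and Cd209f were called without KO sham replicate 1, and the sign of the list's median turned with that library. Cd209f (ENSMUSG00000051906), a C-type lectin of the CD209 family, stood at 0.953, 1.23 and 0.994 CPM in WT and at 0.546, 0.123 and 0 CPM in KO libraries. All KO values lay under all WT values, on 18 to 27 counts per WT and 0 to 8 per KO library. Its log2 fold change was −3.89 ± 0.70 without KO sham replicate 1 (adjusted p = 0.0449) and −2.40 ± 0.73 with it (adjusted p = 0.269). It has near-identical neighbours in its gene family, between which reads may have been split. Of 19 members tested, 8 were above 0 and 11 under it without KO sham replicate 1, with a median of −0.08; with it 13 were above 0, with a median of 0.18. Over all genes 48.7% were above 0 with a median of −0.01 without it. With library totals in place of TMM the list's median was 0.10 without that library. Lyve1, a hyaluronan receptor of this macrophage population, was at 14.8 to 16.4 CPM in WT and 16.4 to 22.0 CPM in KO, and Timd4, a receptor for dying cells, at 1.96 to 2.27 and 1.55 to 1.98 CPM. Neither was called.

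Markers carried by macrophages in general were mostly above 0 in both comparisons. Of 26 tested, 24 were above 0 without KO sham replicate 1 and 26 with it, where 50.7% of all genes were, with medians of 0.34 and 0.38. None was called by edgeR in either comparison, 9 and 8 had an unadjusted p under 0.05 in the higher direction, and DESeq2 called none. Over all genes that share was 4.72% in the higher and 4.9% in the lower direction without that library, and 8.96% and 4.57% with it. Without KO sham replicate 1 the KO and WT libraries did not overlap for 14 higher members and 1 lower one, where 18.4% of all genes were separated upward and 17.7% downward. Fcgr3, an activating Fc receptor, was at 9.42, 8.58 and 9.05 CPM in WT and 14.1, 14.5 and 16.9 CPM in KO libraries. C1qb, a chain of complement C1q, was at 23.1, 18.9 and 25.3 CPM and 36.4, 30.9 and 37.4 CPM. Both kept WT and KO apart in all 6 libraries, with adjusted p of 0.344 and 0.244 without KO sham replicate 1. Csf1r, the growth factor receptor of macrophages, had log2 fold changes of 0.44 and 0.29, and Adgre1, the F4/80 antigen, 0.62 and 0.35, without and with that library. Of the 29 haem and iron genes edgeR called 0 in either comparison. Without KO sham replicate 1, 4 had an unadjusted p under 0.05 and DESeq2 called 0, and with it 7 and 1. Over all genes 9.63% had such a p without that library and 13.5% with it. Hmox1, the inducible haem oxygenase, was at 4.39 to 5.72 CPM in WT and 5.05 to 6.53 CPM in KO, and Ftl1, a ferritin light chain, at 37.7 to 45.6 and 58.4 to 86.9 CPM (adjusted p = 0.235).

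Collagen genes stood higher in KO sham hearts, most of them in all 3 KO libraries. Of 21 collagen genes tested without KO sham replicate 1, 20 were above 0 with a median log2 fold change of 0.82; with it, 19 of 20 were above 0, also with a median of 0.82. edgeR called 4 of the 21 without that library, each higher: Col4a1, Col4a2, Col15a1 and Col6a3. With all 6 libraries it called 0 of 20, with 15 higher at an unadjusted p under 0.05, beside 8.96% of all genes. DESeq2 called 7 in each comparison, beside 214 of all 16196 genes without that library and 207 of 15804 with it. Over the alternatives run without that library the median was 0.70 to 1.01. In 16 of the 21 all tested KO libraries lay above all WT libraries, where 18.4% of all genes were separated upward and 17.7% downward. With replicate 1 counted it was 14 of 20, where 12.2% of all genes were separated upward and 10.4% downward. When only the sham libraries entered the fit, 14 of 20 were called without KO sham replicate 1 and 0 of 20 with it. Over all genes that fit called 418 of 15405 without that library and 0 of 15086 with it.

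Col4a1 (ENSMUSG00000031502) and Col4a2 (ENSMUSG00000031503) encode the paired chains of type IV collagen, the network of basement membranes around cardiomyocytes and capillaries. Col4a1 stood at 346, 314 and 387 CPM in WT and at 574, 702 and 810 CPM in KO libraries. Col4a2 stood at 248, 235 and 259 CPM in WT and at 379, 442 and 490 CPM in KO. For both genes the KO libraries lay above the WT libraries, with replicate 1 the lowest of the KO values. Without that library Col4a1 rose 2.17-fold (log2 1.12 ± 0.17, adjusted p = 0.031) and Col4a2 rose 1.89-fold (log2 0.92 ± 0.15, adjusted p = 0.0367). The call of Col4a1 was lost under 9 of 21 alternatives, with adjusted p of 0.0513 to 0.638. With all 6 libraries the log2 values were 0.99 ± 0.20 (adjusted p = 0.135) and 0.82 ± 0.18 (adjusted p = 0.164). The genes are transcribed in opposite directions from neighbouring start sites on chromosome 8, so their promoter windows are shown, because the pair moved together. In the RefSeq table of build GRCm38.p6 the windows run from 250 bases before to 50 after each start, at chr8:11312777-11313076 on the minus strand for Col4a1 and chr8:11312555-11312854 on the plus strand for Col4a2. Capitals mark the 78 bases that both windows hold, as reverse complements of each other.
Col4a1: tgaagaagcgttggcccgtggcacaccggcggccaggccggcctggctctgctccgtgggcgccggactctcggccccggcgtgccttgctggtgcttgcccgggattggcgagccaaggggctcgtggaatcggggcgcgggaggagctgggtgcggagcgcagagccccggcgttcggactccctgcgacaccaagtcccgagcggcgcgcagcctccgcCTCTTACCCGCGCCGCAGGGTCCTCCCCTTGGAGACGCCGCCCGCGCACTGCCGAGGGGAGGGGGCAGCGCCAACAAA
Col4a2: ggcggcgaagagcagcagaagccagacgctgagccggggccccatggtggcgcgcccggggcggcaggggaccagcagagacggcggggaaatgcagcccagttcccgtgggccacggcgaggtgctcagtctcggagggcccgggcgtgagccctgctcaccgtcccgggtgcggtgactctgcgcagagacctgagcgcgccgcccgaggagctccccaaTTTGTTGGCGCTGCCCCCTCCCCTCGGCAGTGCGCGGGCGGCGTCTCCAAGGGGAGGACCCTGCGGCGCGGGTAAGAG
The start sites lie 21 bases apart. The windows have 74% and 73.7% G and C, against a median of 52.667% over 32851 promoter windows of the same length. The letters CCAAT, searched on both strands, occur once in each window and in 37.4% of all windows, and GGGCGG occurs 1 time for Col4a1 and 3 times for Col4a2 and in 35.7% of all windows. These matches describe the letters of the windows, and the data hold no measure of binding there.

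Col15a1 (ENSMUSG00000028339), a collagen of the basement membrane zone, stood at 75.9, 90.9 and 75.4 CPM in WT and 168, 154 and 185 CPM in KO libraries. Col6a3 (ENSMUSG00000048126), a chain of the collagen VI microfibrils around cells, stood at 37.4, 36.5 and 34.0 CPM and 59.2, 62.6 and 72.7 CPM. In both the highest WT value lay well under the lowest KO value. Without KO sham replicate 1 they rose 2.10-fold (adjusted p = 0.0449) and 1.89-fold (adjusted p = 0.0417). With it their log2 fold changes were 1.07 ± 0.19 (adjusted p = 0.101) and 0.85 ± 0.16 (adjusted p = 0.112). The fibrillar collagens of scar and interstitium showed values of the same size but a larger error. Col1a1 was at 59.1 to 64.6 CPM in WT and 101 to 133 CPM in KO (log2 0.90 ± 0.26, adjusted p = 0.244), and Col3a1 at 154 to 183 and 317 to 360 CPM (log2 1.03 ± 0.31, adjusted p = 0.262). WT and KO did not overlap in either gene. Below 0 without KO sham replicate 1 was Col6a6 alone of the 21, at −0.22; it was named after its value was seen.

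**Figure D2:**
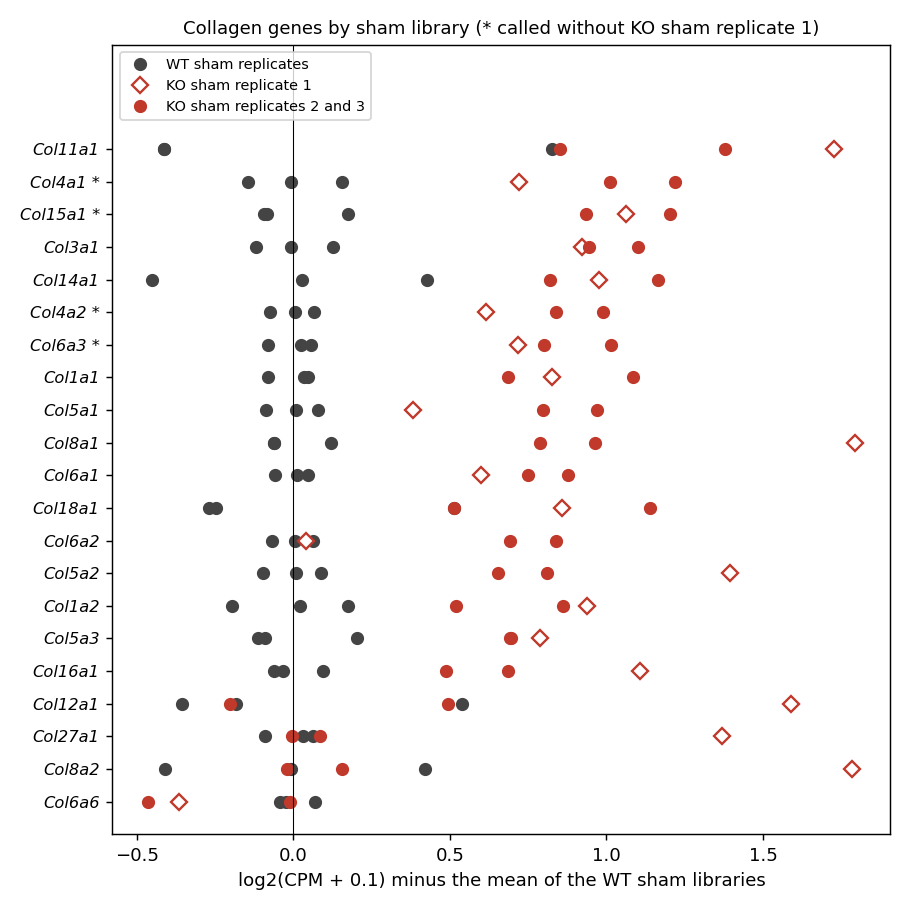
Each of the 21 collagen genes by sham library, as log2(CPM + 0.1) minus the mean of the 3 WT sham libraries; stars mark the 4 genes called without KO sham replicate 1. Red points are KO sham replicates 2 and 3 and open diamonds KO sham replicate 1, which lies to the right of the WT points for all 4 called genes.

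A partner of collagen assembly rose as well. Serpinh1 (ENSMUSG00000070436), the collagen-specific chaperone HSP47 of the endoplasmic reticulum, stood at 175, 180 and 176 CPM in WT and 290, 293 and 330 CPM in KO libraries. The KO values were all above the WT values, which lay close together. It rose 1.77-fold without KO sham replicate 1 (log2 0.82 ± 0.14, adjusted p = 0.0419), and its log2 fold change was 0.78 ± 0.16 with it (adjusted p = 0.134). Serpinh1 was the 1 called gene of 32 matrix proteases, inhibitors and collagen-processing enzymes, of which 25 were above 0 with a median of 0.31 without KO sham replicate 1 and 27 with a median of 0.52 with it. Sparc, a calcium-binding protein that binds collagen, stood at 274, 242 and 304 CPM in WT and 821, 574 and 710 CPM in KO (adjusted p = 0.0501, just outside the threshold). Loxl2, a lysyl oxidase that cross-links collagen, stood at 12.5 to 15.5 and 24.2 to 31.0 CPM (adjusted p = 0.0588). Of 20 elastic fibre genes 17 were above 0, with a median of 0.41 without KO sham replicate 1 and 0.59 with it. Fbn1, the fibrillin of microfibrils, was at 62.4 to 68.9 CPM in WT and 108 to 161 CPM in KO (adjusted p = 0.0897). Efemp1 alone was called in that list and fell, as given below.

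Fibroblast markers as a list were mostly above 0. Among the leading markers, Pdgfra, Tcf21 and Dcn were near 0 or under it without KO sham replicate 1, while Col1a1 was higher in value, as given above. Pdgfra, the receptor that marks cardiac fibroblasts, was at 37.2 to 46.2 CPM in WT and 34.7 to 39.5 CPM in KO, and Tcf21, a fibroblast transcription factor, at 6.96 to 7.40 and 4.30 to 6.49 CPM. Dcn, the decorin gene, had a log2 fold change of −0.07 ± 0.17 without KO sham replicate 1 and 0.20 with it. Over the 24 fibroblast markers tested, 17 were above 0 with a median of 0.19 without KO sham replicate 1 and 20 with a median of 0.36 with it. At an unadjusted p under 0.05 there were 8 and 10, each higher, beside 4.72% and 8.96% of all genes. Without that library 12 were separated upward and 1 downward, beside 18.4% and 17.7% of all genes. With it 10 and 1 were, beside 12.2% and 10.4%. The summed level was 2308 to 2712 CPM in WT and 2815 to 3751 CPM in KO. That sum includes Col1a1, Col1a2 and Col3a1. Whether more fibroblasts take part in the collagen difference was not tested. Meox1 (ENSMUSG00000001493), a homeobox transcription factor found in activated fibroblasts, was the member called. It stood at 14.2, 12.8 and 11.9 CPM in WT and 51.6, 22.5 and 27.8 CPM in KO, with replicate 1 the highest. It rose 1.94-fold without that library (log2 0.96 ± 0.16, adjusted p = 0.0367), and its log2 fold change was 1.39 ± 0.26 with it (adjusted p = 0.112). Postn, the periostin gene of activated fibroblasts, was at 32.8 to 45.2 CPM in WT, 258 CPM in KO sham replicate 1 and 60.7 and 93.5 CPM in the other KO libraries (adjusted p = 0.625 without replicate 1).

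Of the muscle genes, the skeletal actin gene stood out. Acta1 (ENSMUSG00000031972), the skeletal alpha-actin that the fetal and the stressed heart express, stood at 226, 203 and 117 CPM in WT and 1389, 510 and 803 CPM in KO libraries. The lowest KO value was above the highest WT value. It rose 3.62-fold without KO sham replicate 1 (log2 1.86 ± 0.32, adjusted p = 0.0386), and its log2 fold change was 2.31 ± 0.40 with it (adjusted p = 0.101). Reads of the near-identical actin genes may be shared between them. Acta2, the smooth muscle actin, was at 49.8 to 91.4 CPM in WT and 79.9, 120 and 227 CPM in KO (adjusted p = 0.172). The genes of the cardiac stress programme did not move as one: 13 of 23 were above 0 and 10 under it, with a median of 0.07 without KO sham replicate 1, and 15 were above 0 with a median of 0.32 with it. Acta1 was the 1 called, without that library. Nppb, the B-type natriuretic peptide, was at 211 to 234 CPM in WT and 270 to 409 CPM in KO, while Myh7, the slow myosin of the fetal ventricle, was at 509 to 650 and 307 to 456 CPM. Neither was called. The sarcomere genes had a median of −0.17 without KO sham replicate 1, with 23 of 32 under 0, and −0.29 with it, and 0 were called in either; 7 and 2 had an unadjusted p under 0.05, and DESeq2 called 2 and 1. With library totals their median was 0.02 without that library, so its direction depends on the scaling.

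**Figure D3:**
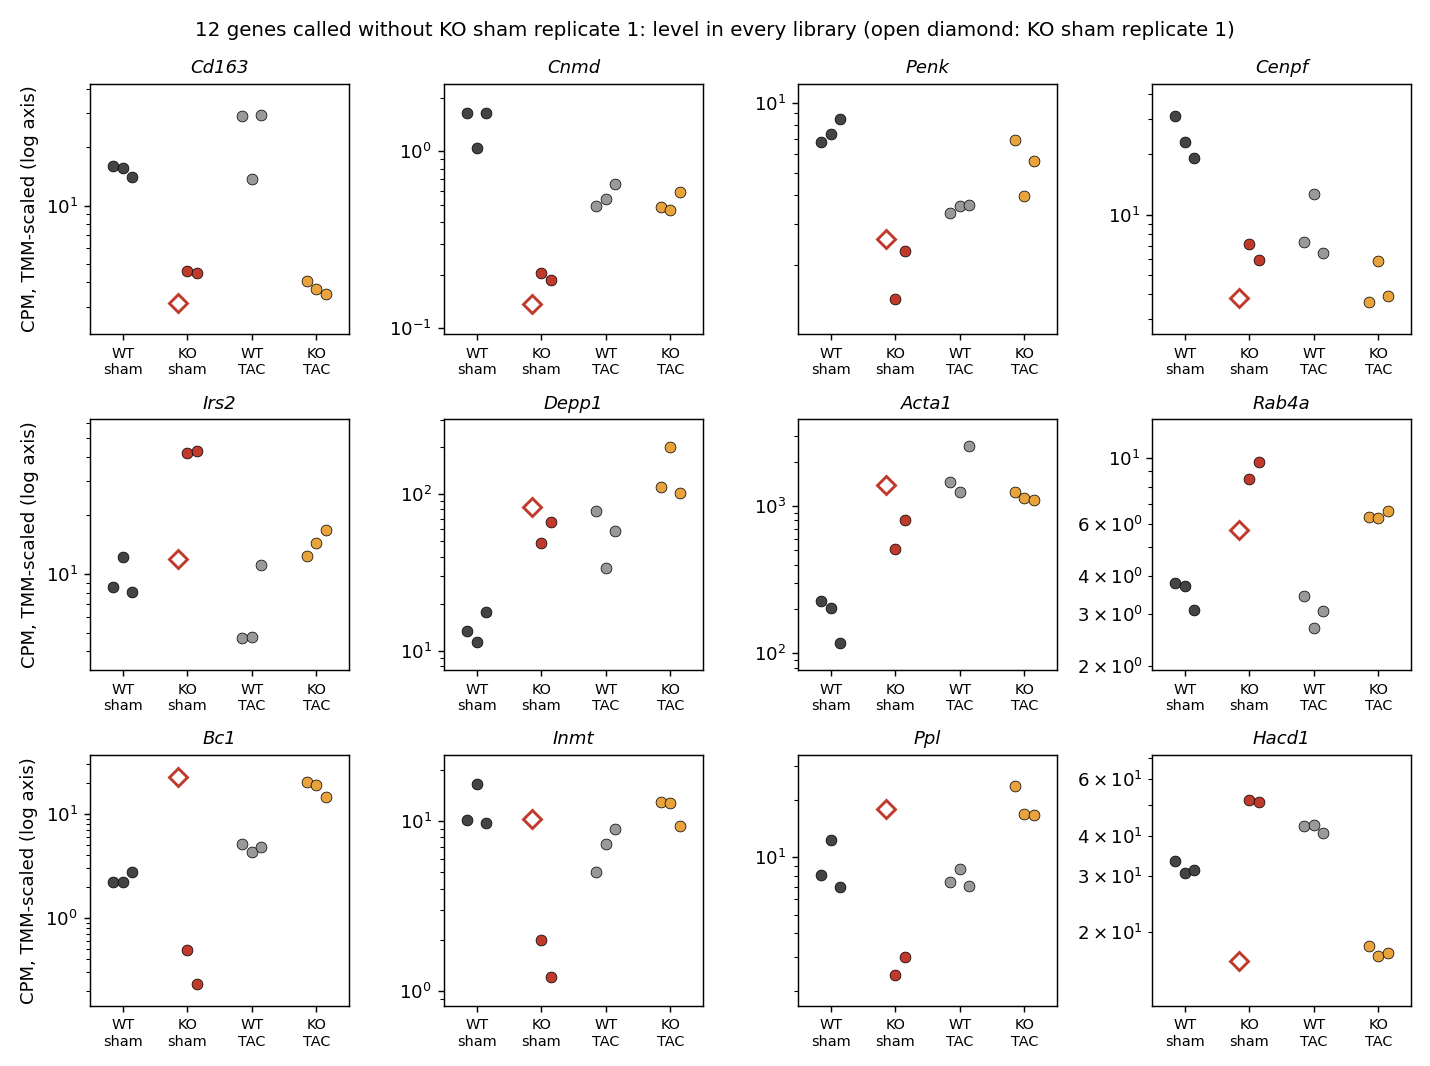
Level in every library of 12 genes called without KO sham replicate 1, as TMM-scaled CPM on log axes; dark grey is WT sham, red KO sham, light grey WT TAC and orange KO TAC, and the open diamond is KO sham replicate 1. In the top row it lies with the other KO sham libraries, while for Bc1, Inmt, Ppl and Hacd1 it lies with the KO TAC libraries; Irs2 in it was at 12.0 CPM, inside the range of WT sham.

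Cnmd, Penk and Cenpf fell in all KO libraries, replicate 1 included. The rule that named the called genes with the largest changes required no overlap over all 6 libraries, so this separation was a condition of naming. Cnmd (ENSMUSG00000022025), chondromodulin, an inhibitor of vessel growth made in cartilage and heart valves, stood at 1.64, 1.04 and 1.64 CPM in WT and 0.137, 0.205 and 0.187 CPM in KO. These are 23 to 33 counts per WT library and 2 to 5 per KO library. It was the gene called with all 6 libraries (log2 −2.95 ± 0.36, adjusted p = 0.0479) and was called without KO sham replicate 1 as well (log2 −2.82 ± 0.41, adjusted p = 0.0223). With all 6 libraries the call was lost under 13 of 21 alternatives, with adjusted p of 0.0501 to 0.316. The summed level of the 28 cartilage, valve and tendon genes was 61.6 to 81.5 CPM in WT, 262 CPM in KO sham replicate 1 and 65.8 and 76.0 CPM in KO sham replicates 2 and 3, so the list as a whole was not lower in KO.

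Penk (ENSMUSG00000045573), the precursor of the enkephalin opioid peptides, stood at 6.78, 7.31 and 8.50 CPM in WT and 2.59, 1.44 and 2.30 CPM in KO. Cenpf (ENSMUSG00000026605), a centromere protein of mitosis that also organises microtubules in muscle, stood at 31.2, 23.0 and 19.1 CPM and 3.82, 7.15 and 5.90 CPM. Neither gene overlapped between WT and KO. Without KO sham replicate 1, Penk fell 4.04-fold (adjusted p = 0.0138) and Cenpf 3.73-fold (adjusted p = 0.0348). With all 6 libraries the log2 fold changes were −1.85 ± 0.26 and −2.11 ± 0.32, with adjusted p of 0.0748 and 0.0757. Pdcd5 (ENSMUSG00000030417), a protein linked to apoptosis, fell 1.81-fold, from 31.9 to 41.4 CPM in WT to 16.4 to 20.6 CPM in KO (adjusted p = 0.0367). Slc6a17 (ENSMUSG00000027894), a neuronal vesicle transporter of amino acids, fell 2.62-fold, from 4.62 to 6.35 CPM to 1.73 to 2.26 CPM (adjusted p = 0.0377).

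Lvrn and Ighg2c fell in KO sham replicates 2 and 3 while replicate 1 lay between them and the WT libraries. Lvrn (ENSMUSG00000024481), an aminopeptidase, stood at 5.42 to 5.81 CPM in WT, 3.82 CPM in KO sham replicate 1 and 0.822 and 0.562 CPM in replicates 2 and 3. Ighg2c (ENSMUSG00000076612), an immunoglobulin heavy chain constant region, stood at 3.63 to 4.29, 2.59 and 0.699 and 0.234 CPM in the same order. Without replicate 1 their log2 fold changes were −2.98 ± 0.42 (adjusted p = 0.0197) and −2.99 ± 0.48 (adjusted p = 0.0348). With it they were −1.76 ± 0.57 and −1.79 ± 0.61, with adjusted p of 0.280 and 0.293. Reads of Ighg2c may be shared with the other heavy chain genes. The 14 B cell markers tested had 8 above 0 with a median of 0.10 without KO sham replicate 1 and 11 with a median of 0.37 with it, and their summed level was 41.9 to 49.6 CPM in WT and 41.0 to 70.3 CPM in KO.

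Among the genes that rose, Depp1, Rab4a and Hr were higher in every KO library. Depp1 (ENSMUSG00000048489), a regulator of autophagy induced by fasting and by FoxO transcription factors, stood at 13.3, 11.3 and 17.8 CPM in WT and 82.9, 48.9 and 66.1 CPM in KO. Rab4a (ENSMUSG00000019478), a small GTPase of recycling endosomes, stood at 3.81, 3.72 and 3.08 CPM and 5.73, 8.51 and 9.70 CPM. Hr (ENSMUSG00000022096), the hairless co-repressor of nuclear receptors, stood at 10.8, 14.4 and 10.1 CPM and 23.6, 26.2 and 28.6 CPM. The KO values lay above the WT values in each gene, as the rule for naming called genes required. Without KO sham replicate 1, Depp1 rose 4.07-fold (adjusted p = 0.0386), Rab4a 2.57-fold (adjusted p = 0.0116) and Hr 2.33-fold (adjusted p = 0.0458). With it the log2 fold changes were 2.22 ± 0.36, 1.18 ± 0.21 and 1.15 ± 0.22, with adjusted p of 0.1, 0.101 and 0.112.

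Other called genes were separated in KO sham replicates 2 and 3 but not in replicate 1, and those named next were chosen after their values were seen. Irs2 (ENSMUSG00000038894), an adaptor that carries the signal of the insulin receptor, stood at 8.58, 12.3 and 8.05 CPM in WT, 41.7 and 42.9 CPM in KO sham replicates 2 and 3 and 12.0 CPM in replicate 1. It rose 4.38-fold without replicate 1 (log2 2.13 ± 0.30, adjusted p = 0.0197), and its log2 fold change was 1.74 ± 0.445 with it (adjusted p = 0.242). Hacd1 (ENSMUSG00000063275), an enzyme of very-long-chain fatty acid synthesis in muscle, stood at 30.6 to 33.4 CPM in WT, 51.8 and 50.9 CPM in replicates 2 and 3 and 16.2 CPM in replicate 1 (adjusted p = 0.0347 without it). Bc1 (ENSMUSG00000115783), a short noncoding RNA, stood at 2.22, 2.22 and 2.78 CPM in WT, 0.493 and 0.234 CPM in replicates 2 and 3 and 22.4 CPM in replicate 1. Its log2 fold change was −2.68 ± 0.32 without replicate 1 (adjusted p = 0.00821) and 1.62 ± 1.08 with it (adjusted p = 0.481), so its direction rests on that library. Inmt, an N-methyltransferase, stood at 9.74 to 16.4 CPM in WT, 2.01 and 1.22 CPM in replicates 2 and 3 and 10.2 CPM in replicate 1 (adjusted p = 0.00821 without it). Ppl, the junction protein periplakin, stood at 6.96 to 12.2, 2.42 and 3 and 17.9 CPM in the same order (adjusted p = 0.027). Gm21887, a gene with a provisional name that was low in all 3 KO libraries, had 31, 15 and 26 counts in WT and 0 in each KO library, at least 24.2-fold lower against a floor of 3 counts over the group; its adjusted p was 0.0449 without replicate 1.

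Efemp1 and C3 fell without KO sham replicate 1, and mesothelial markers differed between the same libraries. Efemp1 (ENSMUSG00000020467), the matrix protein fibulin-3, stood at 11.8, 13.3 and 9.74 CPM in WT, 2.46 and 3.09 CPM in KO sham replicates 2 and 3 and 16.0 CPM in replicate 1 (log2 −2.06 ± 0.37 and −0.73 ± 0.60, adjusted p = 0.0449 and 0.547, without and with it). C3 (ENSMUSG00000024164), the central complement protein, stood at 124, 137 and 68.7, 32.7 and 38.0, and 146 CPM in the same order (log2 −1.63 ± 0.29 and −0.61 ± 0.49, adjusted p = 0.0449 and 0.541). Both genes were in the range of WT or above it in replicate 1. Msln, the mesothelin of the cells that cover the heart, was at 3.02, 4.45 and 0.0497 CPM in WT, 0 and 1.03 CPM in KO sham replicates 2 and 3 and 16.8 CPM in replicate 1. The 16 mesothelial and epicardial markers, C3 among them, had a median of −1.74 without replicate 1 and 0.53 with it. Their summed level was 492 to 771 CPM in WT, 366 and 350 CPM in KO sham replicates 2 and 3 and 620 CPM in replicate 1. Relative to the WT mean, the median member stood at 0.085, 0.473 and −0.770 in WT sham replicates 1 to 3. It stood at −1.286 and −0.861 in KO sham replicates 2 and 3 and 1.519 in replicate 1. Without replicate 1, 8 of the 16 were lower and 1 higher at an unadjusted p under 0.05, beside 4.9% and 4.72% of all genes. The part of mesothelial cells in these differences was not tested. Atrial genes differed widely between libraries of the same genotype. Myl7, the atrial myosin light chain, was at 9, 375 and 27.8 CPM in WT and 817, 86.5 and 64.9 CPM in KO. Of the 16 atrial genes edgeR called 0 in either comparison. In each, 2 had an unadjusted p under 0.05, both higher in KO, and DESeq2 called 1. With all 6 libraries 1 member was separated upward and 0 downward, beside 12.2% and 10.4% of all genes. Without replicate 1 it was 1 upward and 1 downward, beside 18.4% and 17.7%.

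Interferon-induced genes were higher in the KO libraries as a group, and none passed the test. Of 41 tested without KO sham replicate 1, 37 were above 0 with a median of 0.58; with it 39 of 40 were, with a median of 0.77. At an unadjusted p under 0.05 there were 9 and 20 of them, all higher, beside 4.72% and 8.96% of all genes. DESeq2 called 1 and 2. WT and KO libraries did not overlap for 27 members, all higher, without that library, and for 26 with it, beside 18.4% and 12.2% of all genes. Ifi44, an interferon-induced protein, stood at 4.50, 3.90 and 5.62 CPM in WT and 12.5, 11.3 and 12.2 CPM in KO (adjusted p = 0.2 without replicate 1). Isg15, a ubiquitin-like modifier, stood at 1.91, 1.27 and 2.04 CPM and 6.07, 3.74 and 4.68 CPM (adjusted p = 0.306). The WT libraries differed among themselves: the median member stood at −0.34 in WT sham replicate 2 and 0.31 in replicate 3 relative to the WT mean, against 0.53 and 0.60 in KO sham replicates 2 and 3 and 1.27 in replicate 1.

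Genes of the cell cycle showed the same lean. Of 33 tested, 29 were above 0 without KO sham replicate 1 and 30 with it, with medians of 0.58 and 0.89. None was called by edgeR in either. An unadjusted p under 0.05 was held by 14 and 17, beside 9.63% and 13.5% of all genes, and DESeq2 called 2 in each. Mki67, the proliferation antigen Ki-67, stood at 5.56, 3.81 and 5.37 CPM in WT and 14.4, 10.1 and 12.6 CPM in KO. Kif11, a kinesin of the mitotic spindle, stood at 1.22, 1.27 and 1.49 CPM and 4.78, 3.21 and 3.94 CPM. The groups did not overlap in either, with adjusted p of 0.543 and 0.172 without replicate 1. Cdkn1a, the p21 inhibitor of the cell cycle, was also higher in value, at 19.2 to 24.0 CPM in WT and 40.9 to 80.1 CPM in KO (adjusted p = 0.0666). Cenpf, whose protein acts in mitosis too, fell, as given above.

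**Figure D4:**
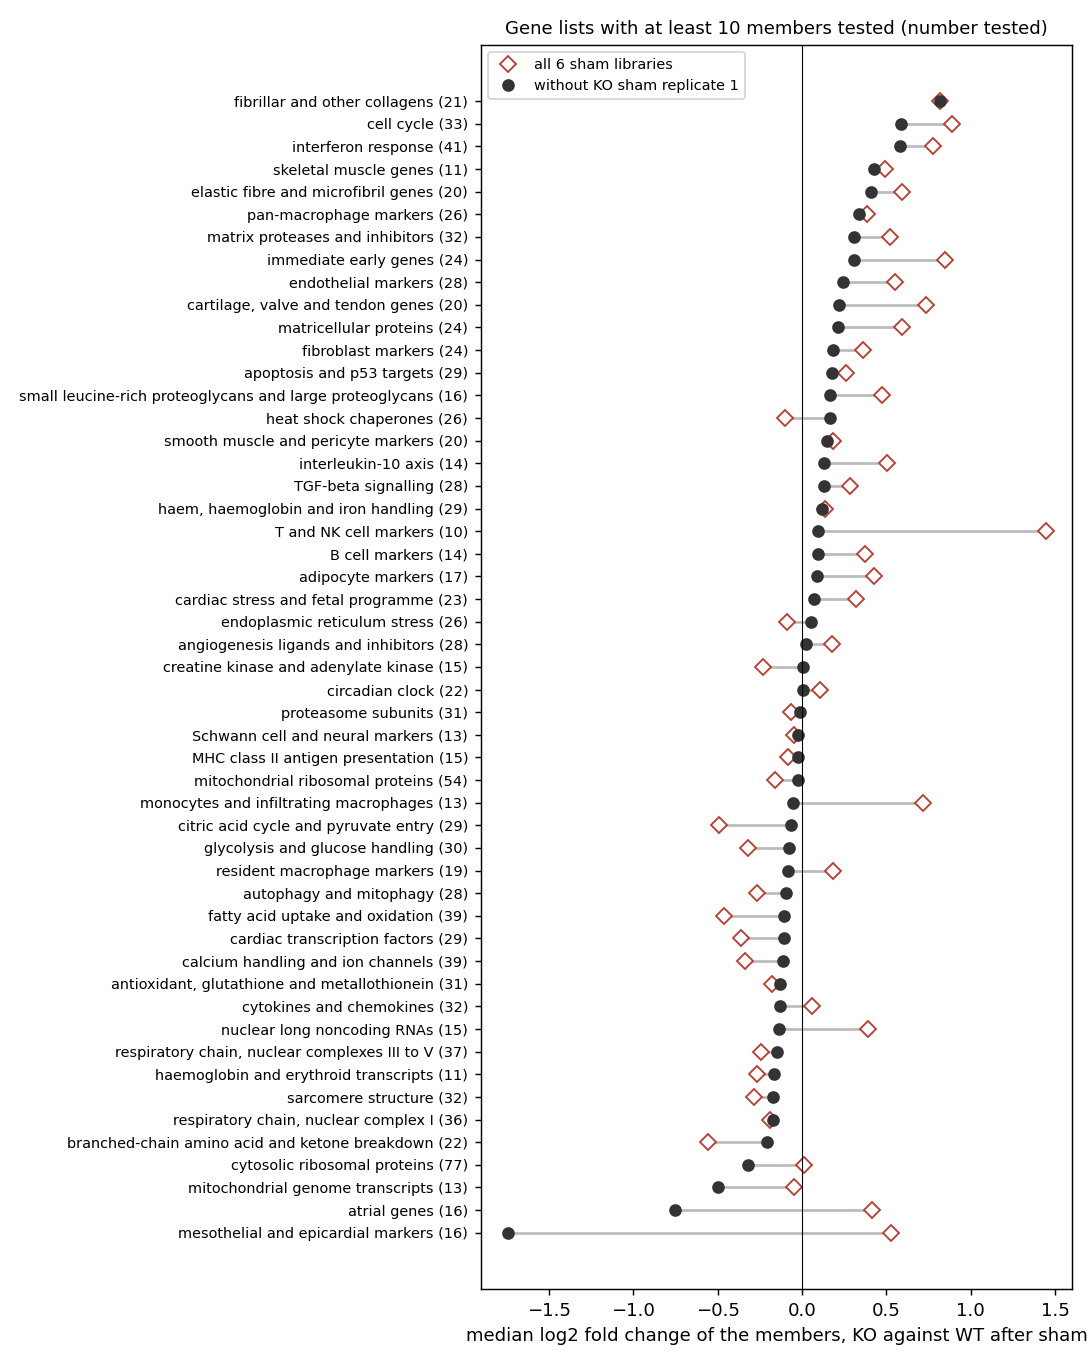
Median log2 fold change of KO against WT after sham over the members of each gene list with at least 10 members tested, with all 6 libraries (open diamonds) and without KO sham replicate 1 (black points). The collagens hold the same median in both, 0.82, while the atrial and mesothelial lists change sign.

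Ribosomal protein genes were lower in KO sham replicates 2 and 3 and higher in replicate 1. Of 77 genes of the cytosolic ribosome, 70 were under 0 without replicate 1 with a median of −0.32, and 37 with it with a median of 0.01. Rps27 and Rps29, short proteins of the small subunit, were the 2 called, both lower. Rps27 (ENSMUSG00000090733) stood at 73.1, 67.0 and 84.7 CPM in WT, 34.5 and 33.7 CPM in replicates 2 and 3 and 98.1 CPM in replicate 1. Rps29 (ENSMUSG00000034892) stood at 136, 116 and 166, 62.1 and 55.0, and 267 CPM in the same order. Without replicate 1 they fell 2.19-fold (adjusted p = 0.0116) and 2.38-fold (adjusted p = 0.0423); with it the adjusted p were 0.528 and 0.905. Both have many processed pseudogene copies, which can take or give reads. The ATP synthase gene Atp5k (ENSMUSG00000050856) followed the same order, with 147 to 226, 82.2 and 70.1, and 273 CPM, and fell 2.40-fold without replicate 1 (adjusted p = 0.0449). Of the 77 ribosomal genes, 59 were separated downward and 2 upward without replicate 1, beside 17.7% and 18.4% of all genes. With it 3 and 1 were, beside 10.4% and 12.2%. At an unadjusted p under 0.05, 38 were lower and 0 higher without replicate 1, beside 4.9% and 4.72% of all genes. Not every member showed this order: Rplp0, an acidic protein of the large subunit, was at 420 to 488 CPM in WT and 379 to 455 CPM in KO. Of the 26 genes called lower, 15 had a longest transcript of 59 to 1633 bases, the shortest of 5 equal groups by length of the longest GENCODE transcript. The median log2 fold change of that group was −0.07, and of its protein-coding genes without ribosomal proteins also −0.07; whether transcript length takes part was not tested.

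Transcripts of the mitochondrial genome made up 36.0 ± 0.882% of the counts in WT sham and 37.7 ± 11.5% in KO sham libraries (SD, n = 3 per group), a difference of 1.68 points (exact permutation test, two-sided, p = 1, smallest possible 0.1). Without replicate 1 the KO mean was 31.1 ± 0.754% (SD, n = 2), 4.95 points under WT, with an exact permutation p of 0.2, the smallest that 3 against 2 libraries allow. All 13 genes were then under 0 with a median of −0.50, and in 12 of them both KO libraries lay under all WT libraries, beside 17.7% of all genes. With replicate 1 the median was −0.05 and none was separated. None was called by edgeR in either comparison; 5 and 0 had an unadjusted p under 0.05, and DESeq2 called 2 and 0. mt-Co2, a subunit of cytochrome oxidase, was at 10890, 9056 and 12380 CPM in WT, 6704 and 7015 CPM in KO sham replicates 2 and 3 and 17470 CPM in replicate 1.

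Nuclear genes of fatty acid oxidation and the citric acid cycle stood far lower in KO sham replicate 1 than in the other 5 sham libraries. The median member of the respiratory chain lists did not. Acadvl, the first enzyme of long-chain fatty acid oxidation, was at 378, 385 and 337 CPM in WT, 356 and 335 CPM in KO sham replicates 2 and 3 and 27.6 CPM in replicate 1. Cs, citrate synthase, was at 951 to 1151 CPM in WT, 1157 and 1050 CPM in replicates 2 and 3 and 225 CPM in replicate 1. The medians of the fatty acid, citric acid cycle and branched-chain amino acid lists were −0.46, −0.49 and −0.56 with all 6 libraries and −0.11, −0.06 and −0.21 without replicate 1, and 0 members were called in each. At an unadjusted p under 0.05 there were 2, 3 and 4 members with all 6 libraries and 2, 2 and 3 without replicate 1, and DESeq2 called 0 and 1 in each list. Without replicate 1, 15 of 39, 9 of 29 and 12 of 22 members were separated downward, in the same order of lists. Upward it was 5, 2 and 0, beside 17.7% of all genes downward and 18.4% upward. With library totals in place of TMM, which moved the median of all genes from −0.01 to 0.18 without replicate 1, the fatty acid and citric acid cycle medians were 0.08 and 0.12. The branched-chain median stayed under 0 in every alternative run without that library, at −0.259 to −0.019. The 36 nuclear genes of complex I of the respiratory chain stood at a median of −0.08 in KO sham replicate 1 relative to the WT mean, −0.18 and −0.19 in replicates 2 and 3 and −0.21 to 0.21 in WT. For the 37 genes of complexes III to V the medians were −0.23, −0.16 and −0.21 in KO and −0.21 to 0.21 in WT, so WT and KO libraries overlapped in part. Their summed level was lowest in replicate 1, at 15520 CPM, against 20990 to 26290 CPM in the other sham libraries. For complex I the sum was 7218 CPM against 7626 to 9753 CPM. Pdk4, the kinase that holds pyruvate back from oxidation, was higher in value in replicates 2 and 3 only, at 134 to 171 CPM in WT, 384 and 423 CPM in those and 85.9 CPM in replicate 1 (adjusted p = 0.225 without it).

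**Figure D5:**
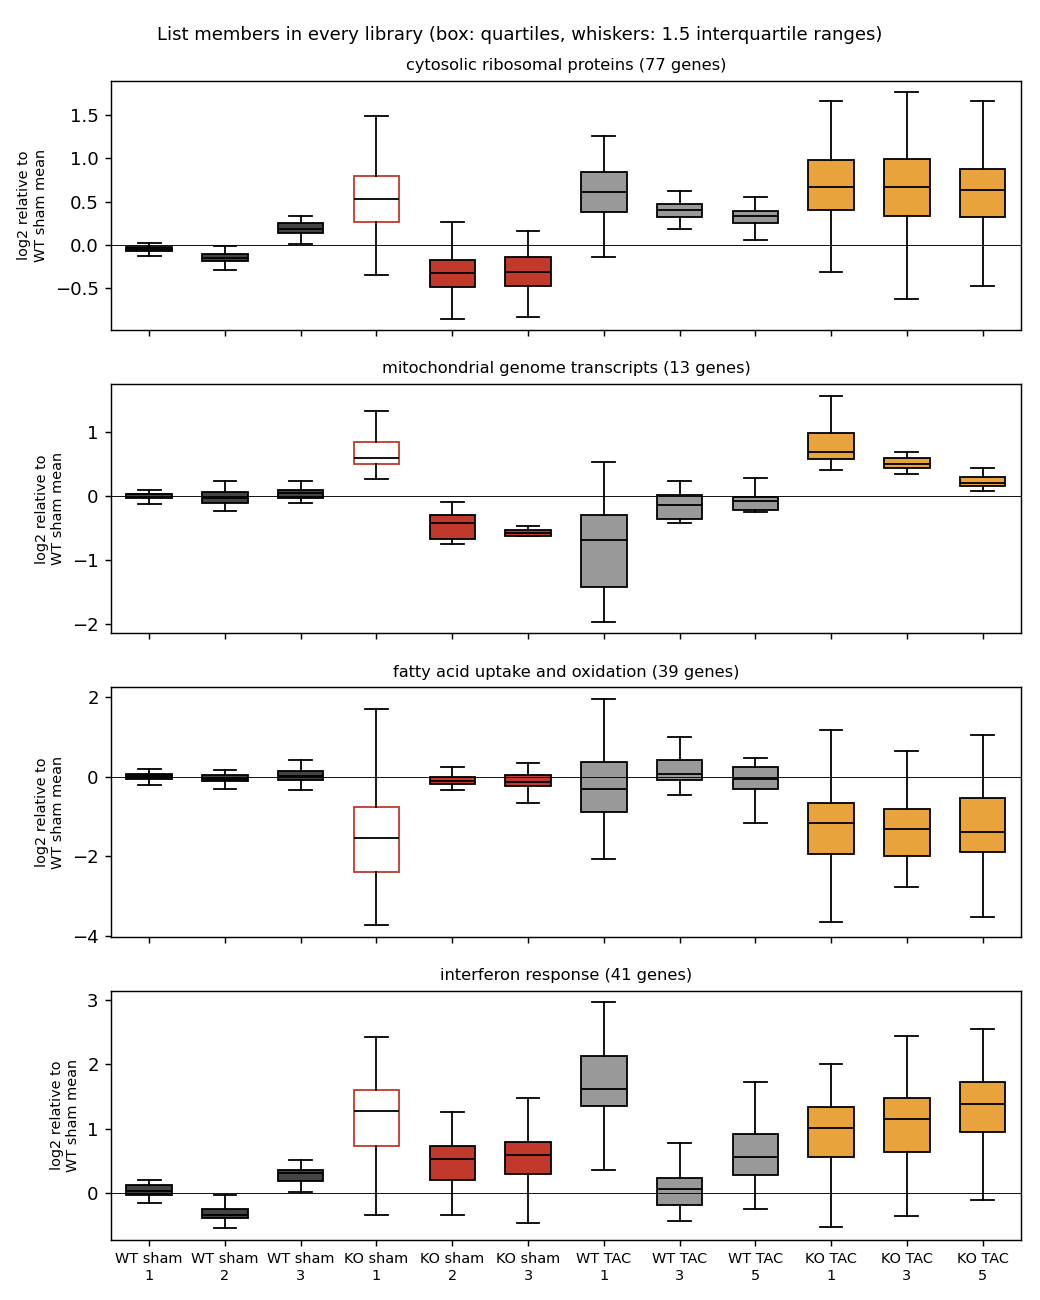
Members of 4 gene lists in all 12 libraries, as log2(CPM + 0.1) relative to the mean of the WT sham libraries; boxes are quartiles and whiskers reach 1.5 interquartile ranges. For ribosomal proteins KO sham replicate 1 (open box) lies at a median of 0.53, with WT TAC at 0.330 to 0.617 and KO TAC at 0.640 to 0.667. For fatty acid genes it lies at −1.54, with WT TAC at −0.307 to 0.079 and KO TAC at −1.375 to −1.166. KO sham replicates 2 and 3 (red) lie near −0.32 for ribosomal proteins and between −0.12 and −0.10 for fatty acid genes.

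Genes that respond within minutes to hours were spread by library. Nr4a3, an orphan nuclear receptor induced by many stimuli, stood at 1.43, 1.36 and 1.09 CPM in WT and 19.7, 9.82 and 18.4 CPM in KO (log2 3.44 ± 0.68, adjusted p = 0.0698 without replicate 1). Fos, the classic early gene, was at 2.22, 18.1 and 15.3 CPM in WT and 30.6, 9.49 and 4.97 CPM in KO, with wide overlap. Of 24 early genes 19 were above 0 with a median of 0.31 without replicate 1 and 23 with a median of 0.85 with it, and none was called by edgeR; 6 and 11 had an unadjusted p under 0.05, and DESeq2 called 2 and 6. The circadian clock genes were split, 11 above and 11 under 0 with a median of 0.00 without replicate 1, and 12 were above 0 with a median of 0.11 with it. Per1, a clock gene also induced by glucocorticoids, was at 15.2 to 23.3 CPM in WT and 37.9 to 124 CPM in KO (adjusted p = 0.0595), while Arntl, the core activator of the clock, was at 27.7 to 32.7 CPM in WT, 30.9 and 30.8 CPM in KO sham replicates 2 and 3 and 15.1 CPM in replicate 1. Endothelial markers had 24 of 28 above 0 with a median of 0.24 without replicate 1 and 0.55 with it, and none was called; 1 and 9 had an unadjusted p under 0.05 and DESeq2 called 0 in each.

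The genotype difference after sham was set against that after TAC in the same fit, without KO sham replicate 1. The 2 differences share no library, but the test of one against the other uses the sham libraries again. Genes chosen for their sham difference are therefore more likely to pass it. By the edgeR test of the difference, the genotype difference differed between the surgeries for 1961 of 16196 genes. A higher log2 value after TAC was held by 754 (4.66% of all genes) and a higher one after sham by 1207 (7.45%). Of the 13 genes that rose after sham, 6 also rose in KO after TAC, 2 fell and 5 were not called, beside 18.5% of all genes called higher and 22.1% called lower after TAC. The 6 were Irs2, Depp1, Rab4a, Meox1, Col15a1 and Col6a3. For Col4a1 the log2 value was 1.12 after sham and −0.19 after TAC, and for Acta1 1.86 and −0.60; the difference between surgeries passed in both (adjusted p = 0.00769 and 0.00697). Of the 26 genes that fell after sham, 5 fell after TAC as well, 11 rose and 10 were not called. Cd163, Cenpf, Pdcd5 and Gm21887 were among those that fell under both surgeries. Penk fell by 2.01 on the log2 scale after sham and stood at 0.64 after TAC, Lvrn at −2.98 and 0.88, and Cd209f at −3.89 and 1.84, and the difference passed for each (adjusted p = 0.00249, 0.00255 and 0.00436).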

How the data were processed

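Poly(A) RNA of 12 mouse heart libraries was sequenced. The authors deposited 1 table of raw read counts per gene with 55357 identifiers; HISAT2 is the aligner per the submitters' processing notes, while its version, the counting tool, genome build, annotation and use of strand are not stated. Without strand, reads of overlapping genes cannot be told apart. Of the identifiers 52081 were matched to symbols. Groups came from the sample titles. Counts of the 12 libraries (11 without KO sham replicate 1) were filtered with filterByExpr, scaled by TMM and fitted by group with edgeR's robust quasi-likelihood test and Benjamini-Hochberg adjustment over all genes tested, with calls at 0.05 (R 4.3.3, edgeR 4.0.16, limma 3.58.1, DESeq2 1.42.0). Tested genes held 99.86% to 99.91% of counts. The surgery comparison was a contrast of the same fit.

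The members and the 57 gene lists were chosen with earlier results of these data known. Genes were named by a rule: Cd163 and Il10, the lead genes of each list described, up to 4 further members with the smallest p, up to 12 called genes per direction without overlap over all 6 libraries and with at least 1 CPM in a group, and the genes called with all 6; others are said to be chosen after their values were seen, as were the promoters of Col4a1 and Col4a2. Some called genes are counted but not reported by name here. A planned motif search in clock gene promoters was not run, since those genes did not move together. In counts simulated for the comparison without KO sham replicate 1 (16196 genes, 100 changed at each size), 45% of 2-fold and 83% of 4-fold changes were recovered, with 11 false calls. Whether these rates hold in the measured libraries was not tested. Alternatives were other scalings, tools, filters, sets of libraries and a replicate block.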

Additional observations from a re-analysis of the deposited data

Results flagged for a closer look

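The genotype difference after sham differed from that after TAC for 1961 genes by the edgeR test of the difference, without KO sham replicate 1; it is listed here because the contrast was tested in both surgeries. Of the 39 genes called after sham, 26 were among them, 6 that rose in KO and 20 that fell. Over all genes 4.66% passed with a higher log2 value after TAC and 7.45% with a higher one after sham. The 39 were chosen with the same sham libraries that enter this test, which favours their passing it. No sample was tested as far from its group, since each group has 3 libraries.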

How the results depend on the processing

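Without KO sham replicate 1 (39 genes called), the count was 19 with library totals, 214 with DESeq2, 1504 with limma-voom, 486 without a low-count filter and 418 with sham libraries alone; leaving out 1 library at a time gave 0 to 295, the highest without WT TAC replicate 1. All 39 were among the calls of DESeq2 and of limma-voom. Of the calls, 33.3% were higher in the reported fit, 63.2% with library totals, 36.9% with DESeq2, 50.2% with limma-voom and 55.0% with sham libraries alone. With all 6 sham libraries (1 called), it was 0 with library totals, with a mean of at least 1 CPM and with sham libraries alone, 207 with DESeq2, 2351 with limma-voom and 80 without a low-count filter, and 0 to 39 with 1 library left out. The difference between surgeries (1961) gave 4348 genes with library totals, where 6.1% rather than 38.4% of calls were higher after TAC, 3198 without a filter and 286 to 5774 with 1 library left out; with sham libraries alone it could not be fitted. The difference in the mitochondrial share was −4.95 to 5.26 points with 1 library left out. Bc1 with all 6 libraries (1.62) turned to −2.74 with limma-voom and was −2.68 to 2.2 with 1 library left out, the lowest without KO sham replicate 1; the cause of these shifts was not tested.

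With the replicate number as a block, 3 genes were called without KO sham replicate 1, 2 of them among the 39, and 293 between the surgeries; with all 6 libraries 1 other gene was called, higher in KO, and Cnmd was not. Deviations of the same-numbered sham libraries from their group means correlated at −0.442, 0.321 and −0.417, and those of other numbers at −0.563 to 0.518. KO sham replicate 1 pulls the mean of its group, so these values cannot decide whether the numbers pair the samples. Library totals moved the median of all genes from 0.01 to 0.12 with all 6 libraries and from −0.01 to 0.18 without KO sham replicate 1. Medians of collagens (0.70 to 1.01), interferon-induced genes (0.44 to 0.77) and ribosomal proteins (−0.40 to −0.13) kept their sign under every alternative run without that library. Genes near 1 CPM rest on few counts, so fold changes there are imprecise.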

Other observations

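Irs2, Col4a1 and Col4a2, which rose without KO sham replicate 1, are near neighbours in RefSeq order on chromosome 8. Between Irs2 and Col4a1 the table has 1 further tested gene, Gm15418, with a log2 fold change of 0.60. The flanking genes Abhd13, Tnfsf13b, Rab20 and E230013L22Rik had log2 fold changes of 0.31, −0.91, −0.06 and −0.53, and none of these 5 neighbours was called. The neighbours were looked at after the values of the 3 genes were seen.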
